A study of Homo sapiens with 18 samples.

Results

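CD14, the Toll-like receptors TLR1, TLR2, TLR4, TLR5, TLR6, TLR7 and TLR8, the TLR4 partner LY96 and the adaptor MYD88 form the innate sensing system of monocytes described here, 10 of the 16241 genes tested. The 10 genes were chosen by name, with earlier results of these data known. A probe set counted for a gene when only the symbol of that gene stood beside it in the annotation of the array. This gave 78 of 287329 probe sets, and the value of a gene was the mean of its log2 probe-set values. Human myeloid leukaemia lines were profiled on Affymetrix human exon 1.0 ST arrays: HL60 (from an acute promyelocytic leukaemia), THP-1 (from an acute monocytic leukaemia) and U937 (from a histiocytic lymphoma, with a monocytic character). PMA (phorbol 12-myristate 13-acetate) switches on protein kinase C and drives such lines towards macrophage-like cells. The 6 groups of 3 arrays were HL60, THP-1 and U937 cells given PMA at 30 nM and harvested after 3 days, and the same lines kept for as long with the vehicle DMSO, diluted 1000-fold. Whether the numbered arrays of a group are separate cultures is not said in the labels, and p-values here cover the spread among these arrays, which may be technical.

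Toll-like receptors recognise microbial molecules. TLR4 senses the lipopolysaccharide (LPS) of Gram-negative bacteria, which CD14 delivers to it and which binds in its partner MD-2, the product of LY96. TLR2 pairs with TLR1 or TLR6 to sense bacterial lipopeptides, TLR5 senses flagellin, and TLR7 and TLR8 sense single-stranded RNA in endosomes. All of these receptors signal through the adaptor MYD88 to the transcription factor NF-kappaB and to inflammatory cytokines.

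The promoters of the 4 members whose changes set the lines apart, or which stand for the members that did and did not move together, are shown first. They are CD14 and TLR2, whose changes were opposite between lines, TLR6, higher in every line, and TLR4, whose changes were small. The sequences are those of RefSeq (GRCh38.p14), read 5′ to 3′ on the gene's strand from 250 bases before to 50 after the start, and capitals mark matches on either strand to the motifs of PU.1 and other ETS factors (GAGGAA), AP-1 (TGANTCA), C/EBP (TTNCNNAA), Sp1 (GGGCGG), NF-kappaB and the TATA box (TATAAA). No match printed overlaps another.
CD14, chr5:140633126-140633425, minus strand: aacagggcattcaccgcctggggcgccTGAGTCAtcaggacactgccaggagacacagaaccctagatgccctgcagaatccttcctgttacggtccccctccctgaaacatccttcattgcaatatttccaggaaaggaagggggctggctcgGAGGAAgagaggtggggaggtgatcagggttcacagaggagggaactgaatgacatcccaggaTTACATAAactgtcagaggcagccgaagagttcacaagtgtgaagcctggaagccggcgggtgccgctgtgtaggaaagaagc
TLR2, chr4:153684030-153684329, plus strand: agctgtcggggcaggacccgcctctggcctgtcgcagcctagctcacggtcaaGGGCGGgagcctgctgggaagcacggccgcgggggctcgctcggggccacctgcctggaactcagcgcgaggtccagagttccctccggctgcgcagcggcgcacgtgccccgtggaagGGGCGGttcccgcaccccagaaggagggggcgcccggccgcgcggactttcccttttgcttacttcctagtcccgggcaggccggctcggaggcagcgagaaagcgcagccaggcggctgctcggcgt
TLR6, chr4:38856768-38857067, minus strand: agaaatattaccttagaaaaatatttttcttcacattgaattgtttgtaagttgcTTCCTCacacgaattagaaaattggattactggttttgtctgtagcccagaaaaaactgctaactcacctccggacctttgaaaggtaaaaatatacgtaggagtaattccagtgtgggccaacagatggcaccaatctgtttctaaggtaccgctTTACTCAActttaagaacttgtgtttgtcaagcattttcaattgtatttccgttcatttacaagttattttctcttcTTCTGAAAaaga
TLR4, chr9:117704153-117704452, plus strand: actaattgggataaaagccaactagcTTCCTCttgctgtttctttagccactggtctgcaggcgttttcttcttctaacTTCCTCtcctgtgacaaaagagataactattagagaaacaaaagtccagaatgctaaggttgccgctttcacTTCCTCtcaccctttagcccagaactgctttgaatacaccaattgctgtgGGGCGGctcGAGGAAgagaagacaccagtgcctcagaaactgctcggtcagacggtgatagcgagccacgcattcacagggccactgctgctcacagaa

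The CD14 window held 1 match each to the PU.1, AP-1 and C/EBP motifs, and it was the only one of 7 member windows with the AP-1 letters, which stand in 7.7% of the 35116 promoters of the same length. The TLR4 window held 4 PU.1 matches and 1 Sp1 match, the TLR2 window 2 Sp1 matches, and the TLR6 window 1 PU.1 and 2 C/EBP matches. Over all promoters, 27.9% held the PU.1 letters, 36.8% the C/EBP letters, 45.0% the Sp1 letters, 1.9% the NF-kappaB letters and 11.5% the TATA letters. Among the 7 member windows, 4 held PU.1, 3 C/EBP and 4 Sp1 letters, and none held the NF-kappaB or TATA letters. Windows of TLR5, TLR8 and MYD88 were also searched, and those of LY96, TLR1 and TLR7 were not used here. A match is a description of the letters in this window.

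All 18 arrays were used as deposited. Array medians lay between 6.18 (U937 PMA 2) and 6.95 (U937 DMSO 1) log2. Arrays of a line shared 39 to 116 exactly tied values with each other but at most 7 with arrays of another line, and the U937 arrays numbered 2 shared at most 5 with any array. Whether the arrays were normalized in 1 set or in several was not tested. The U937 PMA 2 array also held only 83228 distinct values, against 214471 to 220516 on the others, and it gave the lowest value of its group for all 10 members.

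In HL60, 4 of the 10 members rose with PMA, 2 fell and 4 were not called at an adjusted p under 0.05, where 12.3% of all genes were called higher and 10.7% lower. In THP-1, 8 rose, none fell and 2 were not called, against 9.38% of all genes called higher and 13.2% lower. In U937, 5 rose, none fell and 5 were not called, against 5.5% of all genes called higher and 16.5% lower. The median change of the members was 0.03 log2 units in HL60, 1.11 in THP-1 and 0.92 in U937, beside medians over all genes of 0.13, 0.04 and -0.07. LY96, TLR1 and TLR6 were called higher in all 3 lines, 3 of 10 members, as were 2.66% of all genes. CD14 and TLR2 were called higher in a line and lower in another, 2 of 10 members, as were 0.948% of all genes. In such bulk samples, fewer cells that express a gene and less of its RNA per cell cannot be told apart. Changes are PMA minus DMSO in log2 units ± SE, the SE being pooled over the 6 groups, and adjusted p-values are from limma, adjusted over all genes.

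All genes moved by -0.07 log2 units in the median in U937, against 0.12 after quantile normalization and 0.17 after centring, and the balance of all calls depended on the scaling of the arrays. Of the genes called in U937, 25% were higher, against 48.3% after quantile normalization of the 18 arrays and 50.3% after centring each array on its median, and of those in THP-1 41.5% were higher, against 51.7% after centring. With same-numbered arrays of a line taken as pairs, 5648 genes were called in THP-1 and 5399 in U937, against 3666 and 3571 without pairs, and the counts of members called stayed at 8 and 5.

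**Figure D1:**
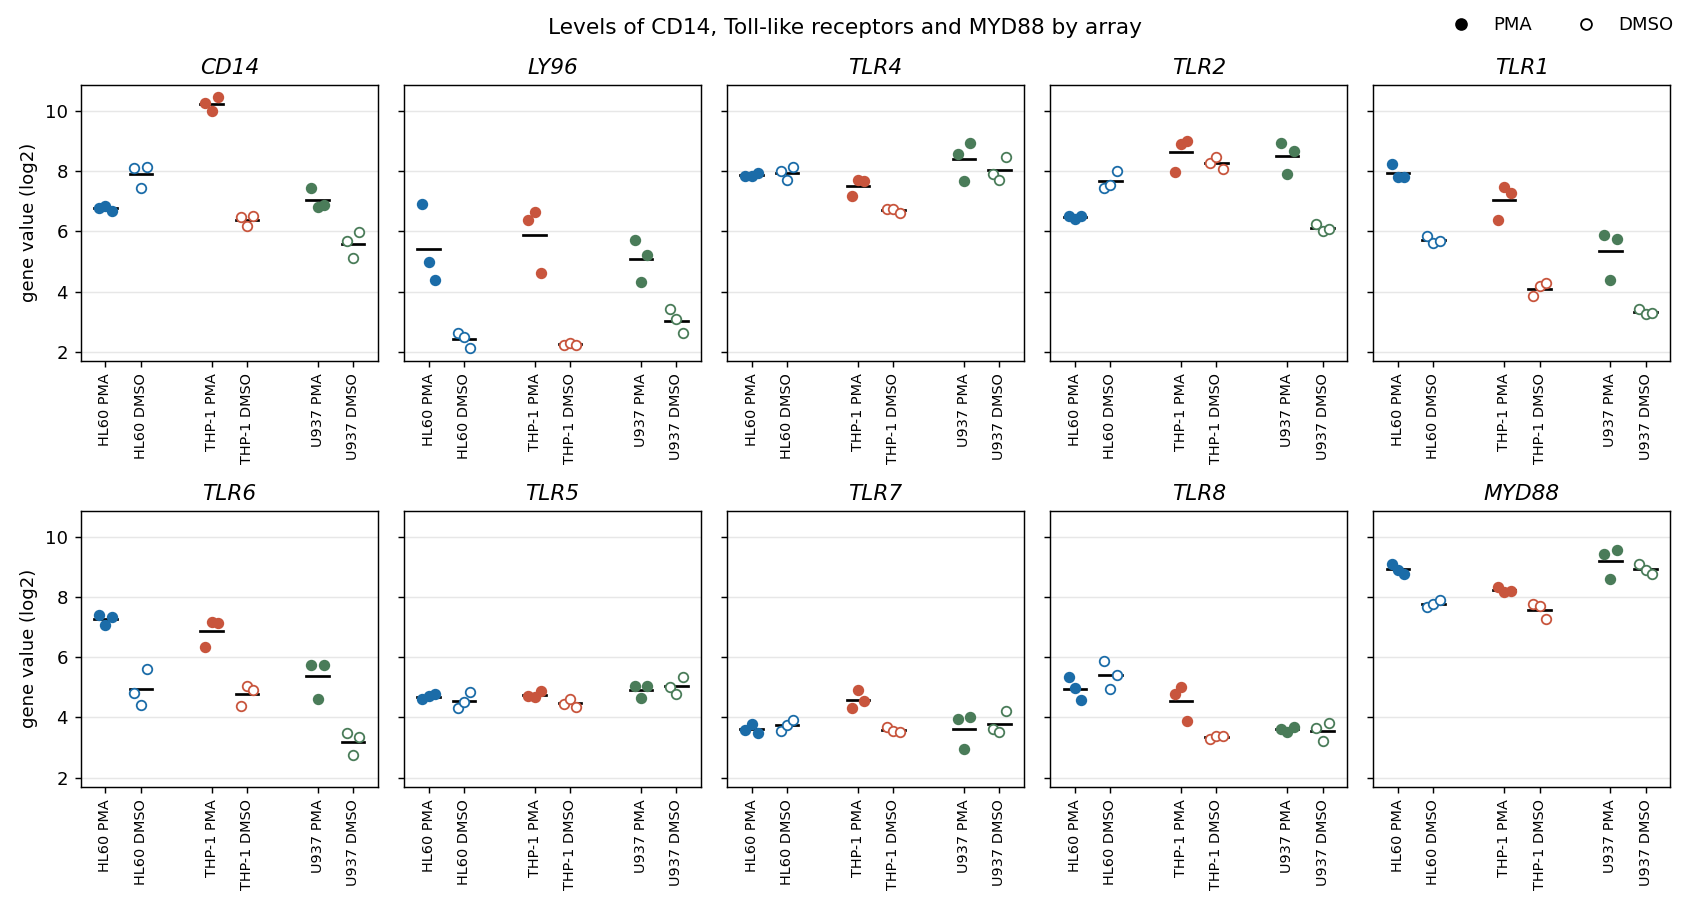
Gene values (log2, vertical axis) of the 10 members on each of the 18 arrays, PMA (filled) left of DMSO (open) for each line, with black bars at the means of 3 arrays. CD14 lies at 10.00 to 10.45 on the THP-1 PMA arrays and at or below 8.13 on every other array, TLR2 is lower with PMA in HL60 and higher in U937, and LY96, TLR1 and TLR6 are higher with PMA in every line.

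CD14, the surface co-receptor that hands LPS to TLR4 and a standard marker of monocytes, changed in opposite directions in HL60 and in the other lines. In HL60 it measured 6.80, 6.85 and 6.67 with PMA, against 8.12, 7.46 and 8.13 with DMSO. All PMA arrays lay below all DMSO arrays, and CD14 fell by 1.13 ± 0.24 log2 units (2.19-fold lower, adjusted p = 0.00184). In THP-1 it measured 10.25, 10.00 and 10.45 with PMA, against 6.48, 6.20 and 6.50 with DMSO, a rise of 3.84 ± 0.24 (14.4-fold, adjusted p = 5.8e-09). Among all genes of the same array, CD14 stood at percentiles 96.5 to 98.6 on the THP-1 PMA arrays, against 45.1 to 55.4 on the THP-1 DMSO arrays. In U937 it measured 7.46, 6.81 and 6.88 with PMA, against 5.67, 5.11 and 5.99 with DMSO, a rise of 1.46 ± 0.24 (2.75-fold, adjusted p = 0.000263). The arrays of the 2 treatments did not overlap in any line, and all 3 calls held in each of the 28 alternative analyses. With DMSO in U937, however, only 2 of the 4 CD14 probe sets were above 5.17, the 30th percentile of probe-set means. These 2 were not called alone there. The 2 that were called, 2878438 and 2878441, averaged 3.06 and 3.45 with DMSO, so the size of the U937 rise is approximate.

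LY96, which encodes MD-2, the LPS-binding partner of TLR4, was near the bottom of the measured range without PMA. It measured 6.92, 4.98 and 4.38 with PMA in HL60, against 2.63, 2.48 and 2.12 with DMSO. In THP-1 the values were 6.37, 6.66 and 4.62 with PMA, against 2.23, 2.30 and 2.21 with DMSO. In U937 they were 5.71, 4.33 and 5.21 with PMA, against 3.41, 3.10 and 2.61 with DMSO. PMA arrays lay above DMSO arrays in every line, but they were spread over more than 1 log2 unit. The rises were 3.01 ± 0.55 in HL60 (adjusted p = 0.000459), 3.63 ± 0.55 in THP-1 (adjusted p = 9.85e-05) and 2.04 ± 0.55 in U937 (adjusted p = 0.0117). On the DMSO arrays LY96 stood between percentiles 0.179 and 5.86 of the genes, and none of its 7 probe sets was above 5.17, the 30th percentile of probe-set means, so the sizes of its changes are approximate. The U937 call was lost without the U937 PMA 1 array (1.73, adjusted p = 0.0615) and held without U937 PMA 2.

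TLR4, the LPS receptor itself, changed little beside its partners. In THP-1 it measured 7.16, 7.72 and 7.67 with PMA, against 6.74, 6.76 and 6.61 with DMSO. These arrays did not overlap, and TLR4 rose by 0.81 ± 0.27 (adjusted p = 0.0361). The call was lost with a median polish of the probe sets (0.73, adjusted p = 0.0523) and without THP-1 DMSO 1, DMSO 2, DMSO 3, PMA 2 or PMA 3 (adjusted p between 0.0806 and 0.123). In HL60 TLR4 measured 7.83, 7.85 and 7.95 with PMA and between 7.72 and 8.14 with DMSO (mean 7.95 ± 0.21, SD, n = 3), a difference of -0.08 ± 0.27 (95% interval -0.64 to 0.49). In U937 it measured 8.58, 7.69 and 8.94 with PMA and 7.90, 7.71 and 8.48 with DMSO, a difference of 0.38 ± 0.27 (adjusted p = 0.424). Without the U937 PMA 2 array the U937 difference was 0.73 and was called (adjusted p = 0.0257), as it was after quantile normalization (0.62, adjusted p = 0.0302).

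TLR2, the shared chain of the lipopeptide receptors, was the other member with opposite changes. In HL60 it measured 6.50, 6.40 and 6.51 with PMA, against 7.45, 7.53 and 8.02 with DMSO, and it fell by 1.19 ± 0.27 (2.29-fold lower, adjusted p = 0.0032). In U937 it measured 8.95, 7.92 and 8.68 with PMA, against 6.24, 6.01 and 6.07 with DMSO, and it rose by 2.41 ± 0.27 (5.33-fold, adjusted p = 5.85e-06). In both lines the arrays of the treatments lay fully apart. In THP-1 TLR2 was high throughout, at 7.98, 8.91 and 9.02 with PMA and 8.26, 8.46 and 8.06 with DMSO, and the arrays overlapped. Its difference there was 0.37 ± 0.27 (95% interval -0.21 to 0.95).

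TLR1 and TLR6, the partners that give TLR2 its preference for different lipopeptides, rose in every line. TLR1 measured 8.23, 7.82 and 7.81 with PMA in HL60, against 5.86, 5.62 and 5.67 with DMSO. In THP-1 it measured 6.37, 7.46 and 7.28 with PMA, against 3.85, 4.18 and 4.28 with DMSO. In U937 it measured 5.89, 4.37 and 5.75 with PMA, against 3.43, 3.24 and 3.29 with DMSO. All PMA arrays were above all DMSO arrays of their line, and the rises were 2.23 ± 0.33 in HL60 (adjusted p = 4.99e-05), 2.93 ± 0.33 in THP-1 (adjusted p = 3.87e-06) and 2.02 ± 0.33 in U937 (adjusted p = 0.000211).

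TLR6 measured 7.42, 7.08 and 7.34 with PMA in HL60, against 4.82, 4.41 and 5.59 with DMSO. In THP-1 it measured 6.33, 7.16 and 7.14 with PMA, against 4.39, 5.05 and 4.90 with DMSO. In U937 it measured 5.75, 4.60 and 5.75 with PMA, against 3.49, 2.76 and 3.35 with DMSO. The treatments did not overlap in any line, and the rises were 2.34 ± 0.34 (adjusted p = 5.25e-05), 2.10 ± 0.34 (adjusted p = 0.000209) and 2.17 ± 0.34 (adjusted p = 0.000173) in HL60, THP-1 and U937. The calls of TLR1 and TLR6 in the 3 lines held in every alternative analysis. With DMSO, however, 0 of 3 TLR6 probe sets in U937 and 1 of 3 in THP-1 were above 5.17. For TLR1, 2 of 11 were above it in THP-1 and in U937, so the sizes of these rises are approximate. TLR1 and TLR6 are close paralogues, and whether probes of either gene also bind transcripts of the other was not tested.

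**Figure D2:**
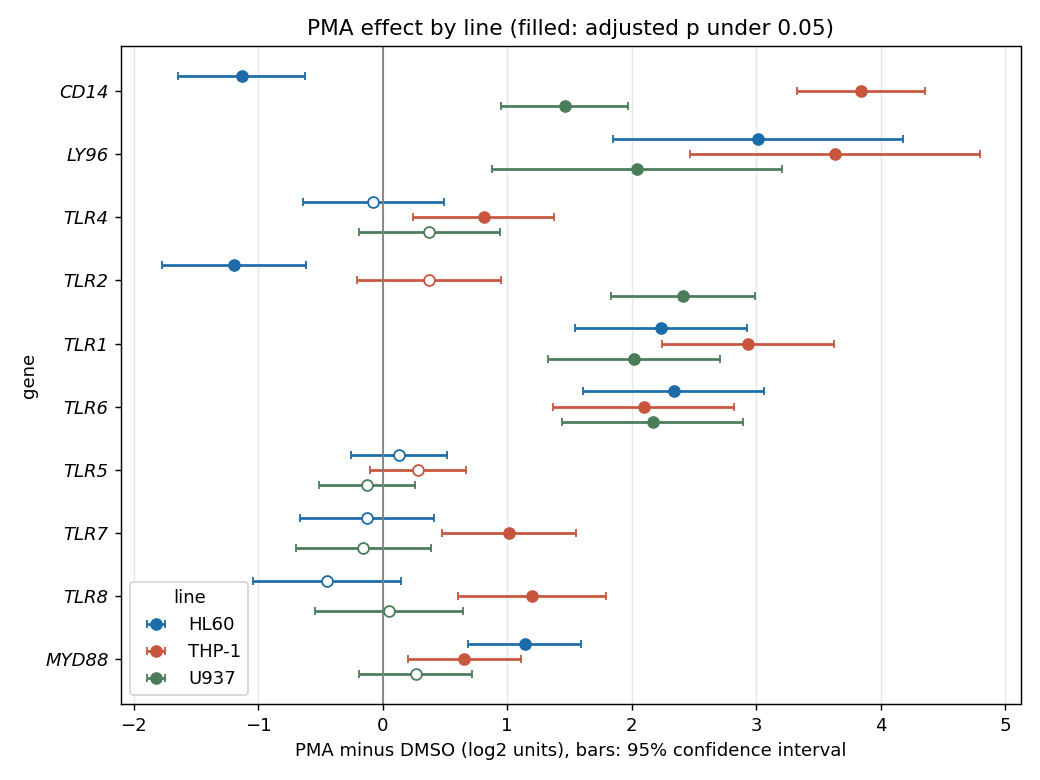
PMA minus DMSO (log2 units, horizontal axis) for each member (vertical axis) in HL60, THP-1 and U937, with 95% confidence intervals as bars and filled points for an adjusted p under 0.05. CD14 runs from -1.13 in HL60 to 3.84 in THP-1 and TLR2 from -1.19 in HL60 to 2.41 in U937, and TLR6 lies between 2.10 and 2.34.

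TLR5, the flagellin receptor, was not called in any line. Its group means lay between 4.69 and 4.91 with PMA and between 4.46 and 5.03 with DMSO. The differences were 0.13 ± 0.18 in HL60 (95% interval -0.26 to 0.52), 0.29 ± 0.18 in THP-1 (95% interval -0.10 to 0.67) and -0.13 ± 0.18 in U937 (95% interval -0.51 to 0.26). Only 2 of its 8 probe sets were above 5.17 in any group, so a change of a low transcript would be hard to see. Mean levels of the 8 ran from 2.28 to 10.80, so the gene value mixes bright and low probe sets. Alone, 1 of them was called higher in HL60.

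TLR7 and TLR8, the endosomal RNA sensors that lie side by side on chromosome X, were called in THP-1, at low levels. TLR7 measured 4.31, 4.90 and 4.56 with PMA in THP-1, against 3.67, 3.56 and 3.51 with DMSO. TLR8 measured 4.77, 4.99 and 3.86 with PMA in THP-1, against 3.27, 3.39 and 3.38 with DMSO. In both genes the PMA arrays were all higher, by 1.01 ± 0.26 for TLR7 (adjusted p = 0.00728) and by 1.20 ± 0.28 for TLR8 (adjusted p = 0.00439). The TLR7 call was lost when probe sets with a mean under 5.17 were left out (0.76, adjusted p = 0.145), which leaves 1 of its 6 probe sets, 3969096.

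In HL60, TLR8 measured 5.33, 4.96 and 4.58 with PMA and 5.87, 4.93 and 5.41 with DMSO, a difference of -0.45 ± 0.28 (adjusted p = 0.308). TLR7 differed there by -0.13 ± 0.26 (adjusted p = 0.769). In U937 the differences were -0.15 ± 0.26 for TLR7 (adjusted p = 0.833) and 0.05 ± 0.28 for TLR8 (adjusted p = 0.962). In the U937 PMA group 0 of 6 TLR7 and 1 of 9 TLR8 probe sets were above 5.17. Probe set 3969096 alone differed by -1.07 in U937 (adjusted p = 0.0396 in the fit without low probe sets, 0.0815 over all probe sets), and 4 of the 6 TLR7 probe sets had positive differences.

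MYD88, the adaptor that links these receptors to their kinases, rose in HL60 and THP-1. It measured 9.08, 8.91 and 8.77 with PMA in HL60, against 7.67, 7.77 and 7.90 with DMSO, a rise of 1.14 ± 0.21 (2.21-fold, adjusted p = 0.000594). In THP-1 it measured 8.33, 8.18 and 8.20 with PMA, against 7.76, 7.70 and 7.27 with DMSO, and rose by 0.66 ± 0.21 (adjusted p = 0.035). The arrays of the treatments lay apart in both lines, but the THP-1 call was lost with a median polish (adjusted p = 0.0864) and without THP-1 DMSO 2, DMSO 3, PMA 1, PMA 2 or PMA 3 (adjusted p between 0.0621 and 0.144). In U937 MYD88 was already high, at 9.41, 8.61 and 9.55 with PMA and 9.11, 8.89 and 8.77 with DMSO, and its difference of 0.27 ± 0.21 was not called (adjusted p = 0.505). Without U937 PMA 2 that difference was 0.56 and was called (adjusted p = 0.0216), as after quantile normalization (0.53, adjusted p = 0.00465).

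The change with PMA was then compared between lines within the same fit. Between HL60 and THP-1, 3 of the 10 members differed, where 7.78% of all genes did. They were CD14 (-4.98 ± 0.34, adjusted p = 9.18e-08), TLR8 (-1.64 ± 0.40, adjusted p = 0.0146) and TLR2 (-1.57 ± 0.39, adjusted p = 0.0167), each changing less, or downwards, in HL60. The TLR2 difference was not called without HL60 DMSO 3 (-1.39, adjusted p = 0.0506). TLR7 (-1.14, adjusted p = 0.0649) and TLR4 (-0.89, adjusted p = 0.207) were not called, but both were under several alternatives. These were same-numbered arrays as pairs (adjusted p = 0.00984 for TLR7 and 0.0238 for TLR4), quantile normalization (0.00282 and 0.0259), centring (0.00481 and 0.0230), the lines compared alone (0.00722 and 0.0244) and a fit without U937 PMA 2 (0.00948 and 0.0498). TLR7 was also called with the replicate number as a block over all lines (adjusted p = 0.0466) and without U937 PMA 3 (0.0486).

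Between HL60 and U937, 2 members differed, where 7.73% of all genes did, namely TLR2 (-3.61 ± 0.39, adjusted p = 9.47e-06) and CD14 (-2.60 ± 0.34, adjusted p = 8.78e-05). MYD88 differed by 0.87 ± 0.30 (adjusted p = 0.0990, against 0.0414 with pairs, 0.0284 after quantile normalization and 0.0295 without U937 PMA 3). Between THP-1 and U937, 2 members differed, where 4.77% of all genes did. CD14 rose more in THP-1 (2.38 ± 0.34, adjusted p = 0.000321) and TLR2 less (-2.04 ± 0.39, adjusted p = 0.00333). TLR7 (1.17, adjusted p = 0.012) and TLR8 (1.14, adjusted p = 0.0296) were called with pairs, beside adjusted p = 0.0843 and 0.14 without. TLR7 was also called after quantile normalization (adjusted p = 0.0153), centring (0.0303) and without U937 PMA 3 (0.0375), and TLR8 without THP-1 PMA 3 (0.0204). CD14 and TLR2 thus differed in their change in each of the 3 pairs of lines. Over all genes, 77.3% of the differences called between HL60 and U937 were positive (57.7% after quantile normalization, 53.7% after centring), as were 65.9% between THP-1 and U937 (50.3% and 49.2%).

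For LY96, TLR1 and TLR6, no difference of changes between lines was called, but the intervals leave room for sizeable ones. The 95% intervals of LY96 ran from -2.27 to 1.03 for HL60 minus THP-1, from -0.68 to 2.62 for HL60 minus U937 and from -0.06 to 3.24 for THP-1 minus U937. Those of TLR1 ran from -1.68 to 0.28, from -0.76 to 1.19 and from -0.06 to 1.89 for the same differences. TLR6 differed by 0.24 (-0.79 to 1.27), 0.17 (-0.86 to 1.20) and -0.07 (-1.10 to 0.96). In U937 the DMSO values of LY96, TLR1 and TLR6 lay near the bottom of the scale, and in THP-1 most of their probe sets were not above 5.17. LY96 was as low with DMSO in HL60 (mean 2.41, 0 of 7 probe sets above 5.17). Changes of LY96 in all 3 lines and of TLR1 and TLR6 in THP-1 and U937, and the differences that use them, are approximate.

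Levels were also compared between lines at the same treatment, with the reservation that arrays of different lines shared few tied values and may have been scaled in separate sets, which was not tested. Scaling set the balance of these calls over all genes: with DMSO, 34.9% of the genes called between HL60 and THP-1 were higher in HL60 (48.0% after quantile normalization, 53.2% after centring). Between HL60 and U937 16.9% were higher in HL60 (44.5% and 48.2%), and between THP-1 and U937 28.8% were higher in THP-1 (49.3% and 49.1%). With PMA, 4 members differed between HL60 and THP-1, where 23.5% of all genes did. CD14 (-3.46), TLR2 (-2.16) and TLR7 (-0.97) were lower in HL60 and MYD88 (0.69) higher. The MYD88 call was lost without HL60 PMA 1, HL60 PMA 2, THP-1 PMA 2 or THP-1 PMA 3 (adjusted p between 0.0685 and 0.0972), and the TLR7 call without THP-1 PMA 2 (adjusted p = 0.0532), with a median polish (-0.78, adjusted p = 0.0514) or without the low probe sets, which leaves 1 of 6 (-0.51, adjusted p = 0.372). TLR1 was 0.92 higher in HL60 (adjusted p = 0.0523), and that was called after quantile normalization (0.89, adjusted p = 0.0113), with the replicate number as a block (adjusted p = 0.0377) and without U937 PMA 2 (adjusted p = 0.00637), U937 PMA 1, U937 PMA 3 or THP-1 PMA 2.

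With PMA, 4 members differed between HL60 and U937, where 20.8% of all genes did. TLR1 (2.61), TLR6 (1.91) and TLR8 (1.35) were higher in HL60 and TLR2 (-2.05) was lower. Without U937 PMA 2, TLR4 (-0.88, adjusted p = 0.00711) and MYD88 (-0.56, adjusted p = 0.0171) were called lower in HL60 too. Between THP-1 and U937, 7 members differed with PMA, where 21.5% of all genes did. CD14 (3.18), TLR1 (1.70), TLR6 (1.51), TLR7 (0.96) and TLR8 (0.93) were higher in THP-1, and TLR4 (-0.89) and MYD88 (-0.96) lower. Calls of TLR7 (without THP-1 PMA 2, adjusted p = 0.0609), TLR8 (without THP-1 PMA 1, THP-1 PMA 2 or U937 PMA 1, 0.0592 to 0.131) and TLR4 (without THP-1 PMA 1, U937 PMA 1 or U937 PMA 3, 0.09 to 0.13) were lost when such an array was left out. These differences kept their sign in every alternative. Median polish also lost the calls of TLR7 (adjusted p = 0.105) and TLR8 (0.0608), and the lines compared alone that of TLR4 (0.0549). The order of the PMA groups was thus THP-1 above U937 and HL60 for CD14, HL60 and THP-1 above U937 for TLR1 and TLR6, and THP-1 and U937 above HL60 for TLR2. CD14 did not differ beyond the spread between HL60 and U937 with PMA (-0.28, adjusted p = 0.535).

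With DMSO the order of CD14 was another. CD14 was 1.51 higher in HL60 than in THP-1 (adjusted p = 0.000195) and 0.80 higher in THP-1 than in U937 (adjusted p = 0.0211, but 0.0678 without THP-1 DMSO 1, 0.0711 without THP-1 DMSO 3 and 0.105 without U937 DMSO 2). Between HL60 and THP-1, 4 members differed with DMSO, where 16.6% of all genes did, all higher in HL60: TLR8 (2.06), TLR1 (1.61), CD14 and TLR4 (1.25). Between HL60 and U937, 6 differed, where 22.9% of all genes did. TLR1 (2.40), CD14 (2.32), TLR8 (1.85), TLR6 (1.74) and TLR2 (1.56) were higher in HL60 and MYD88 (-1.15) lower. TLR5 (-0.47, adjusted p = 0.0768) was called lower in HL60 without U937 PMA 2 (0.0329), U937 DMSO 2 (0.0413) or HL60 DMSO 3 (0.0409).

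Between THP-1 and U937, 6 members differed with DMSO, where 26.2% of all genes did. TLR2 (2.16), TLR6 (1.58) and CD14 were higher in THP-1, and MYD88 (-1.35), TLR4 (-1.32) and TLR5 (-0.57) lower. After quantile normalization the TLR5 difference was -0.34 and was not called (adjusted p = 0.145), and TLR1 was called higher in THP-1 (0.96, adjusted p = 0.00771, against 0.78 and 0.0863). TLR1 was called there too without U937 PMA 2 (adjusted p = 0.0142), after centring (0.00605) and without low probe sets (0.0340). The TLR5 difference was also lost without any of THP-1 DMSO 1, THP-1 DMSO 3, U937 DMSO 1 or U937 DMSO 3 (adjusted p between 0.0737 and 0.146).

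Single probe sets, each testing a short stretch of a transcript, gave the same picture within most members. In HL60, 3 of 4 CD14 probe sets and 3 of 5 TLR2 probe sets were lower, where 8.39% of all probe sets were. There 5 of 7 LY96, 10 of 11 TLR1, 3 of 3 TLR6, 6 of 9 MYD88 and 1 of 8 TLR5 probe sets were higher, where 7.41% of all were. In THP-1, where 5.08% of all probe sets were higher and 8.84% lower, none of the 78 was lower. All 4 CD14 probe sets were higher there, as were 4 of 7 of LY96, 10 of 11 of TLR1, 3 of 3 of TLR6, 3 of 9 of TLR8, 2 of 6 of TLR7 and 2 of 16 of TLR4, whose 16 differences were all positive (0.22 to 1.40). No MYD88 probe set was called alone in THP-1, although all 9 differences were positive (0.30 to 1.87). In U937, where 3.19% of all probe sets were higher and 9.9% lower, all 5 TLR2 probe sets were higher (1.64 to 2.89), as were 2 of 4 of CD14, 3 of 7 of LY96, 7 of 11 of TLR1 and 3 of 3 of TLR6. Again none of the 78 was lower in U937.

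Within CD14 the probe sets changed by different amounts. In HL60 probe set 2878438 fell by 1.72 (adjusted p = 0.00432), and the smallest difference was -0.14 in probe set 2878439 (adjusted p = 0.805). Probe set 2878439 measured 9.29 ± 0.12 with PMA and 9.43 ± 0.38 with DMSO in HL60 (SD, n = 3 each). In THP-1 the rises ran from 2.45 in that same probe set (adjusted p = 1.15e-05) to 4.98 in probe set 2878441 (adjusted p = 1.33e-07), and in U937 from 0.39 (adjusted p = 0.423) to 2.36 in probe set 2878438 (adjusted p = 0.000607). LY96 probe sets ran from 1.41 to 4.73 in HL60, from 1.33 to 6.06 in THP-1 and from 0.33 to 3.88 in U937.

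**Figure D3:**
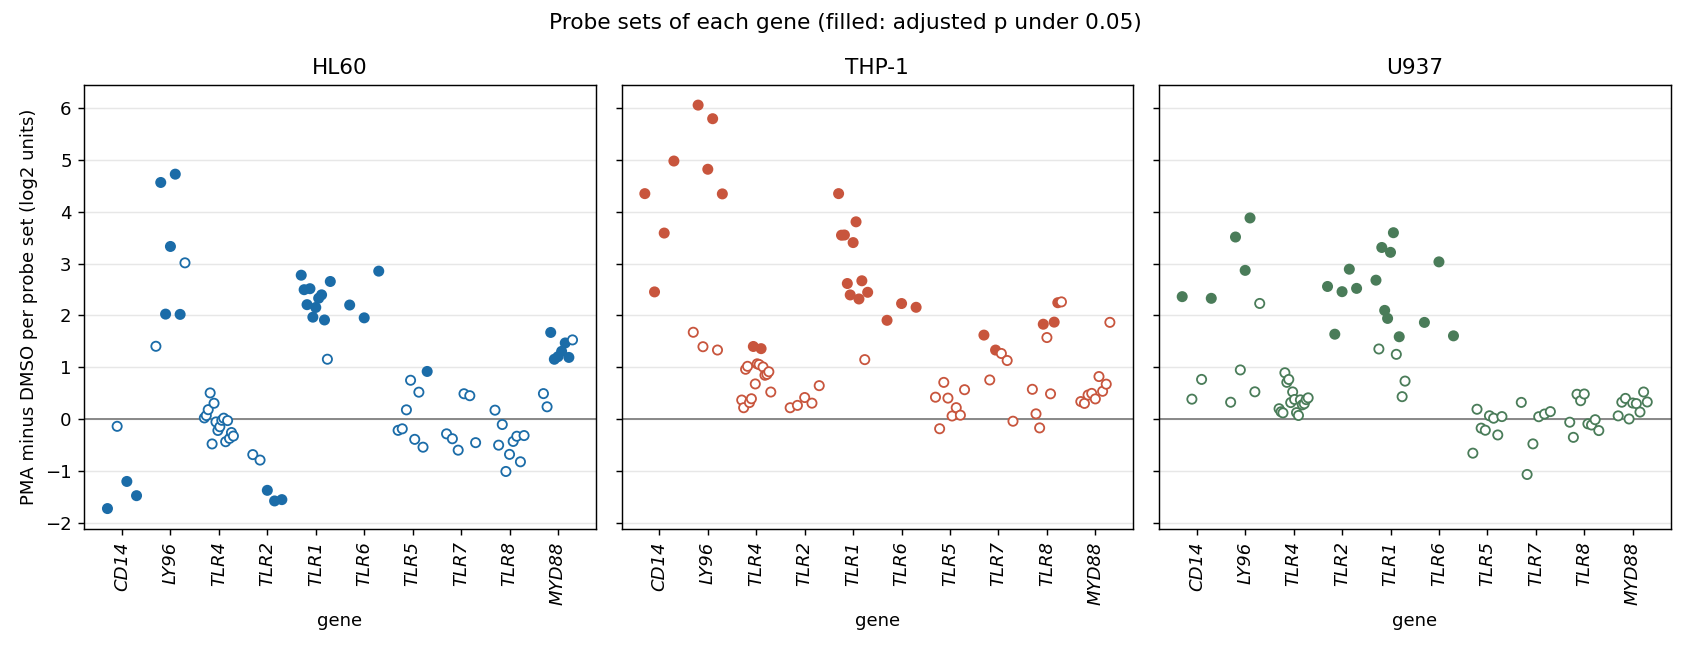
PMA minus DMSO (log2 units, vertical axis) of each of the 78 probe sets, grouped by gene (horizontal axis), in HL60, THP-1 and U937, with filled points for an adjusted p under 0.05 over all probe sets. The 3 TLR6 probe sets lie between 1.61 and 3.03 in every panel, and the 4 CD14 probe sets lie at or below -0.14 in HL60 and at or above 2.45 in THP-1.

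Exon usage, the change of a probe set relative to the other probe sets of its gene, could be tested for 4 members with 37 probe sets whose mean over the 18 arrays was above 5.17. That mean does not show signal in every group: with DMSO, 2 of 11 TLR1 probe sets were above 5.17 in THP-1 and in U937, and probe set 2766228, for example, averaged 5.89 over all arrays but 3.66 and 2.90 in these groups. A single TLR1 probe set was called. In THP-1, the change of probe set 2766239 was below that of the rest of TLR1 (-2.11 ± 0.52 log2 units, adjusted p = 0.0124), as it was in U937 (-2.20 ± 0.52, adjusted p = 0.0102). It measured 7.37 ± 0.49 with PMA and 6.22 ± 0.26 with DMSO in THP-1, and 6.53 ± 0.82 with PMA and 6.10 ± 0.69 with DMSO in U937 (SD, n = 3 each). It was thus 1 of the 2 above 5.17 with DMSO and was set against probe sets mostly near the bottom of the scale there. Whether these calls reflect a difference in exon usage was not tested. In HL60 the difference had the same sign and was not called (-1.11 ± 0.52, adjusted p = 0.467). The splicing index, a per-probe-set test that does not pool the probe sets of a gene, called it too in THP-1 (-1.84, adjusted p = 0.00149) and U937 (-1.92, adjusted p = 0.00152). It also called TLR1 probe set 2766228, which rose more than its gene in THP-1 (1.36, adjusted p = 0.00261, against 1.55 and adjusted p = 0.155 in the pooled test). Of all probe sets tested for exon usage, 2.79% were called in HL60, 1.5% in THP-1 and 1.01% in U937, beside 0 of 37 member probe sets in HL60 and 1 of 37 in THP-1 and in U937. The exon that the probe set reads was not used here.

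TLR1 and TLR6 are neighbours on chromosome 4, in a run that begins with the transcription factor gene KLF3 and TLR10 and ends with FAM114A1. TLR10, a member of the same family next to TLR1, was not called in HL60 (0.22, adjusted p = 0.521), THP-1 (0.33, adjusted p = 0.316) or U937 (0.27, adjusted p = 0.496). FAM114A1 rose in HL60 (0.87, adjusted p = 0.0336) and was not called in THP-1 or U937, and KLF3 rose in THP-1 (1.20, adjusted p = 0.0196). On chromosome X the run was PRPS2, TLR7, TLR8 and FAM9C. PRPS2, an enzyme of nucleotide synthesis, fell in all 3 lines, by 1.18 in HL60, 0.52 in THP-1 and 1.76 in U937, and FAM9C was not called.

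The genes whose profile over the 18 arrays was most like that of each called member were taken from 7974 genes whose group means spanned at least 1 log2 unit. For TLR1 the nearest was TLR6 (Pearson r = 0.95), followed by GLIPR1 and ARHGAP10 (both 0.94). For TLR6 they were CYTH4 (0.96), ITGB7 (0.95), the chain of a leukocyte integrin, and PACSIN2 (0.95). For LY96 they were the inhibitory receptor CD300A (0.95), the signalling regulator RGS1 (0.95) and SPRY2 (0.95). CD14 was most like GLIS3 (0.88), CLMP (0.88) and RGMB (0.86), and TLR2 most like the adenosine receptor ADORA2B (0.82), MEFV, the gene of pyrin (0.82), and the Fc receptor FCGR1A (0.79).

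TLR4 was most like ZFHX3, CCSER2 and NDST1 (each 0.90), TLR7 most like RSPO3 (0.91), SYNE1 (0.91) and NRSN1 (0.90), and TLR8 most like SULF2 (0.88), KIF13A (0.88) and MATK (0.87). MYD88 was most like FLOT1 (0.96), TMEM102 (0.96) and SNX15 (0.95). These correlations are descriptions, since the 18 arrays share 6 groups and 3 lines.

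Among the other Toll-like receptors, TLR3, TLR9 and TLR10, none was called in any line, and their median changes were 0.12 in HL60, 0.23 in THP-1 and -0.01 in U937. The pathway lists here and below were chosen with earlier results of these data known, so their counts beside the shares of all genes are descriptions. The partners of LPS sensing other than LY96 were mostly called higher. Of LBP, CD180, LY86, ITGAM, ITGB2 and CD36, 5 were measured, and 4 rose in each line while LY86 was not called. Of all genes, 12.3% were called higher in HL60, 9.38% in THP-1 and 5.5% in U937. ITGAM had also been listed as a marker of the PMA response. ITGAM, a chain of the complement receptor that also binds LPS, rose by 3.57 ± 0.37 in HL60 (adjusted p = 9.49e-07), 2.98 ± 0.37 in THP-1 (adjusted p = 1.27e-05) and 2.87 ± 0.37 in U937 (adjusted p = 2.39e-05). Its partner chain ITGB2 rose by 2.24 ± 0.21 in HL60 and 1.57 ± 0.21 in U937. The scavenger receptor and TLR2 co-receptor CD36 rose by 4.27 ± 0.44 in HL60 and 3.44 ± 0.44 in THP-1. CD180, a homologue of TLR4, rose by 3.04 ± 0.29 in THP-1 and 2.20 ± 0.29 in U937. The median changes of this list were 2.24, 2.98 and 1.57, beside 0.13, 0.04 and -0.07 for all genes.

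Of 3 other TIR adaptors measured, TICAM1, the adaptor of the MYD88-independent route, rose in HL60 (0.74 ± 0.19, adjusted p = 0.00666) and THP-1 (0.82 ± 0.19, adjusted p = 0.00354), and none was called in U937, where 2 were called after quantile normalization or without U937 PMA 2. Of 17 receptor-proximal kinases and ubiquitin ligases, 4 rose and 1 fell in HL60, 4 rose and 2 fell in THP-1, and 1 rose and 1 fell in U937. The shares of all genes called higher and lower were 12.3% and 10.7% in HL60, 9.38% and 13.2% in THP-1, and 5.5% and 16.5% in U937. Over the alternatives the counts called ran from 3 to 8 in HL60, 3 to 8 in THP-1 and 1 to 9 in U937, with 8, 7 and 5 called without U937 PMA 2. The medians of these 17 genes, 0.13, -0.06 and -0.03, lay close to those of all genes. PELI2, a ubiquitin ligase of the Pellino family, fell by 1.31 in HL60 (adjusted p = 0.000251), 1.53 in THP-1 (adjusted p = 7.19e-05) and 0.73 in U937 (adjusted p = 0.026, but 0.0576 to 0.129 without U937 DMSO 1, DMSO 3 or PMA 2). The kinase gene IKBKE rose by 1.26 in HL60 (adjusted p = 0.000186), IRAK2 by 1.40 in U937 (adjusted p = 0.000243) and PELI1 by 1.00 in THP-1 (adjusted p = 0.0053). TAB2, an adaptor of the kinase TAK1, rose by 1.05 in HL60 (adjusted p = 0.029) and 0.99 in THP-1 (adjusted p = 0.0406), both calls being lost without single arrays of the line.

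Of 14 negative regulators of the pathway, 8 rose and 1 fell in HL60, 4 rose and 1 fell in THP-1, and 6 rose and 1 fell in U937, with medians of 0.82, 0.25 and 0.43. Of all genes, 12.3% were called higher and 10.7% lower in HL60, 9.38% and 13.2% in THP-1, and 5.5% and 16.5% in U937. The counts called ran from 8 to 9 in HL60, 5 to 7 in THP-1 and 3 to 10 in U937 over the alternatives. The gene that fell was in each case IRAK3, an inhibitory IRAK of monocytes, by 2.20 ± 0.30 in HL60 (adjusted p = 1.99e-05), 2.16 ± 0.30 in THP-1 (adjusted p = 3.49e-05) and 1.67 ± 0.30 in U937 (adjusted p = 0.000461). The transcriptional repressor ATF3 rose by 3.34 ± 0.26, 2.21 ± 0.26 and 1.66 ± 0.26 in HL60, THP-1 and U937, and TNFAIP3, the ubiquitin-editing enzyme A20, by 1.24 ± 0.26, 1.30 ± 0.26 and 2.22 ± 0.26. Of 10 chaperones and trafficking proteins of these receptors, none rose, and 3 fell in HL60, 2 in THP-1 and 1 in U937, counts to be read against the 10.7%, 13.2% and 16.5% of all genes called lower. They ran from 1 to 4, 1 to 4 and 1 to 2 over the alternatives, with 4 called in THP-1 without U937 PMA 2. LAMP5, a lysosomal membrane protein, fell by 2.25 ± 0.36, 3.51 ± 0.36 and 4.17 ± 0.36 in the 3 lines (adjusted p = 0.000122, 1.58e-06 and 3.77e-07). HSP90B1, the endoplasmic reticulum chaperone that folds most Toll-like receptors, fell by 1.23 ± 0.33 in HL60 (adjusted p = 0.0108) and 1.08 ± 0.33 in THP-1 (adjusted p = 0.0259). SLC15A4, an endolysosomal transporter, fell by 0.58 ± 0.20 in HL60 (adjusted p = 0.0395). Calls of HSP90B1 and SLC15A4 were lost without single arrays of the line (highest adjusted p = 0.112 and 0.145).

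Of 12 transcription factors of the pathway, 3 rose and 1 fell in HL60, 3 rose and 2 fell in THP-1, and 4 rose and 1 fell in U937. The shares of all genes called higher and lower were 12.3% and 10.7% in HL60, 9.38% and 13.2% in THP-1, and 5.5% and 16.5% in U937. The counts called ran from 4 to 6 in HL60, 2 to 7 in THP-1 and 3 to 8 in U937 over the alternatives. CEBPB, a factor of monocyte and macrophage genes, rose by 2.34 ± 0.18, 0.82 ± 0.18 and 1.43 ± 0.18 in HL60, THP-1 and U937. NFKB2 rose by 1.41 ± 0.22 in HL60 and 1.20 ± 0.22 in U937, and CEBPA fell by 0.81 ± 0.24 in THP-1 (adjusted p = 0.0171, but 0.0672 without THP-1 DMSO 1 and 0.0758 without THP-1 PMA 2). IRF8, a factor of the monocyte and dendritic lineages, fell by 2.84 ± 0.43 in HL60 (adjusted p = 6.51e-05), 2.54 ± 0.43 in THP-1 (adjusted p = 0.000262) and 1.32 ± 0.43 in U937 (adjusted p = 0.0337, but 0.0863 after quantile normalization and 0.0563 to 0.151 without each U937 array other than PMA 3). Of 14 genes that NF-kappaB and LPS are known to induce, 7 rose in HL60, 6 in THP-1 and 10 in U937, and none fell. Called higher were 12.3%, 9.38% and 5.5% of all genes, and called lower 10.7%, 13.2% and 16.5%. The counts of this list ran from 6 to 9, 5 to 9 and 8 to 10 over the alternatives. The cytokine gene IL1B rose by 5.32 ± 0.33, 6.54 ± 0.33 and 3.97 ± 0.33 in the 3 lines. The interleukin-1 receptor antagonist IL1RN rose by 5.76 ± 0.36 in HL60 and 3.21 ± 0.36 in U937, the adhesion molecule ICAM1 by 3.11 ± 0.22 in HL60 and 3.23 ± 0.22 in THP-1, and the chemokine CXCL8 by 2.49 ± 0.59 in THP-1 and 2.95 ± 0.59 in U937. The medians of this list were 0.94, 0.58 and 1.59, beside 0.13, 0.04 and -0.07 for all genes.

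**Figure D4:**
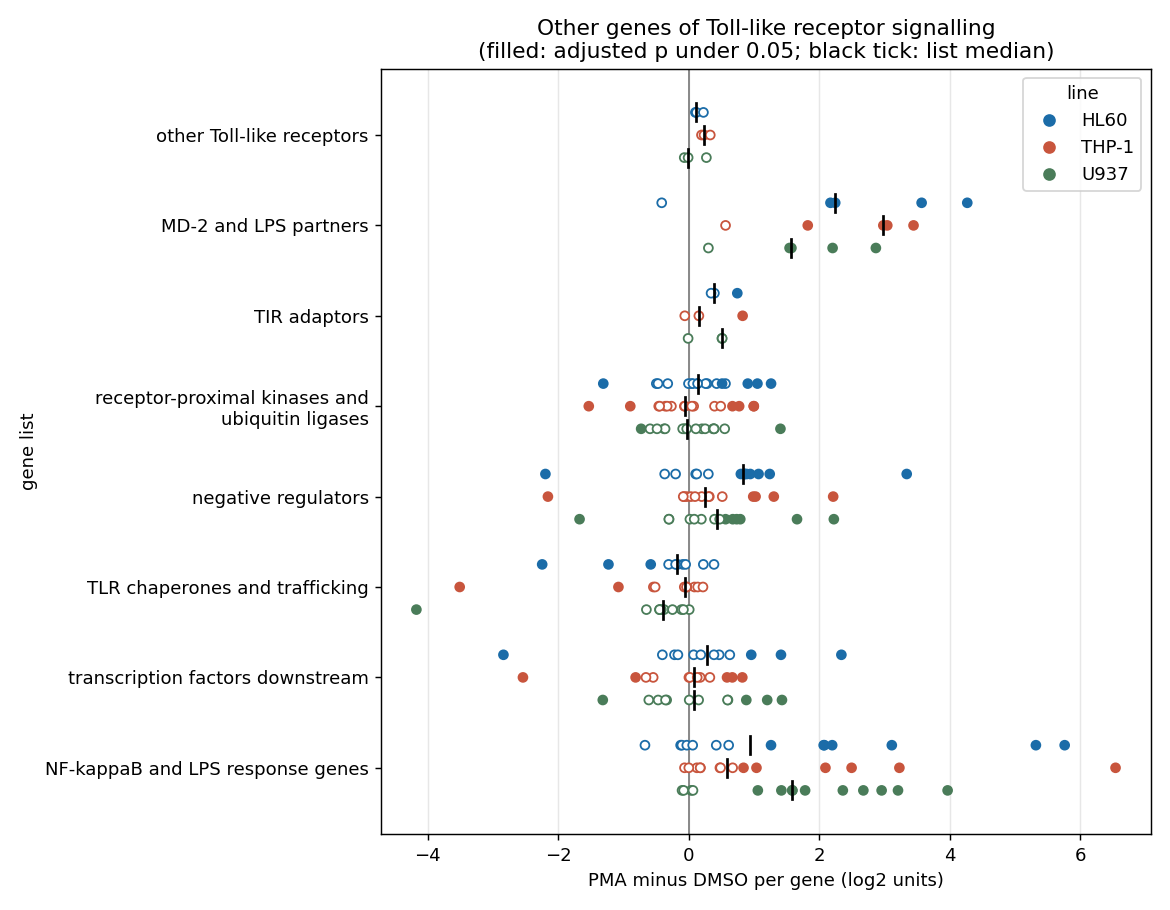
PMA minus DMSO (log2 units, horizontal axis) of each gene in 8 lists of the pathway (vertical axis) in HL60, THP-1 and U937, with filled points for an adjusted p under 0.05 and black ticks at list medians. The LPS partners have medians of 2.24, 2.98 and 1.57, whereas those of the kinases and ubiquitin ligases lie between -0.06 and 0.13.

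Of 9 measured myeloid genes such as LYZ, SPI1 and CSF3R, 8 were above the median gene in every group but U937 DMSO, where 6 were. With PMA, 2 rose and 4 fell in HL60, 2 rose and 3 fell in THP-1, and 2 rose and none fell in U937. Over all genes, 12.3% were called higher and 10.7% lower in HL60, 9.38% and 13.2% in THP-1, and 5.5% and 16.5% in U937. The other marker counts of this paragraph stand beside the same shares. CSF1R, the receptor of a macrophage growth factor, rose by 3.04, 3.07 and 2.71 in the 3 lines. The granule enzyme gene MPO fell by 5.88 in HL60 (adjusted p = 2.72e-12) and 0.81 in THP-1 (adjusted p = 0.00398), and LYZ fell by 1.71 (adjusted p = 0.00544) and 2.13 (adjusted p = 0.00113), and CSF3R by 1.58 (adjusted p = 0.000402) and 1.90 (adjusted p = 8.9e-05) in these lines. FCGR1A fell by 2.40 in HL60 (adjusted p = 3.07e-06) and rose by 1.21 in U937 (adjusted p = 0.00352). The integrin chain ITGAX, SPP1 and the cell cycle inhibitor CDKN1A rose and the progenitor factor MYB fell in all 3 lines. Of 8 T and NK cell genes 1, NKG7, was called, lower in HL60 (-1.58) and THP-1 (-0.85). Of the same 8, 1 was above the median gene in every group, and their mean level lay between 4.69 and 5.57 with PMA and between 4.67 and 5.44 with DMSO. Of 4 measured B cell genes, CD79A rose in HL60 (1.00, adjusted p = 0.00716) and PAX5 fell in U937 (-0.96, adjusted p = 0.00143). CD22 rose in THP-1 (3.80, adjusted p = 4.4e-11) and U937 (1.68, adjusted p = 6.37e-07), and the mean level of the 4 B cell genes was 6.14 to 6.33 with PMA and 5.25 to 5.33 with DMSO in THP-1. Of 4 dendritic cell genes, CD1C rose in HL60 (2.19, adjusted p = 1.11e-05) and THP-1 (1.80, adjusted p = 0.000127), and no other was called. No erythroid, megakaryocyte, fibroblast or epithelial gene of the 10 measured was called in any line. Their part in the results of the Toll-like receptors was not tested.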

How the data were processed

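RNA of 18 samples was measured on Affymetrix human exon 1.0 ST arrays, and the deposited series table holds log2 signals of 287329 probe sets, made by the authors with Affymetrix Expression Console per the submitters' processing notes (version not given in the sources used here). The array values were used by gene symbol with no genome build, and the promoter sequences are those of RefSeq for GRCh38.p14. Probe sets with 1 gene symbol (261273; 9155 have several and 16901 none) were averaged per gene, and genes with at least 3 were kept, 16241 in all. A linear model over 6 group means was fitted with limma 3.58.1 in R 4.3.3, two-sided, with Benjamini-Hochberg adjustment over all genes (or all probe sets) and calls at an adjusted p under 0.05. For exon usage, diffSplice of limma was run on probe sets above percentile 30 of the mean level (5.17), in genes with at least 5, requiring a difference of at least 1 log2 unit. The tests were checked on simulated data with independent noise on each array. That check does not cover the deviations shared by same-numbered arrays that are described below. For exon usage, it set a limit on the false calls of diffSplice only with 1 spread per gene. Where each simulated probe set had its own spread, it set that limit only on the splicing index. The median SE of a PMA effect was 0.226, and the number of arrays limits the precision.

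The members and gene lists were chosen with earlier results of these data known. Named were all members, the 3 called genes with the largest change per list and line, the 3 most correlated genes per called member, and probe sets at the extremes of a member. Same-numbered arrays of a line deviated together from their group means (r between 0.285 and 0.790 in 9 of 9 pairs), so they are taken as pairs within a line where stated. Same-numbered arrays of different lines also deviated together, with r over 0.1 in 28 of 36 pairs. Their median r was 0.442 (range -0.486 to 0.771), against 0.521 within a line, so the shared deviation is not particular to a line. The pairing within a line comes from the data, as the labels give only the numbers. Alternatives were other scalings, a median polish, filters on low genes and probe sets, the lines compared alone, replicate blocks, the splicing index and leaving out arrays.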

Additional observations from a re-analysis of the deposited data

Results flagged for a closer look

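The change with PMA differed between lines by a test of the difference itself for 3 members, 7 differences in all (limma, adjusted over all genes). For CD14 the change in HL60 minus that in THP-1 was -4.98 (adjusted p = 9.18e-08), with -1.13 in HL60 and 3.84 in THP-1. The change of CD14 in HL60 minus that in U937 was -2.60 (adjusted p = 8.78e-05), and in THP-1 minus that in U937 it was 2.38 (adjusted p = 0.000321), with 1.46 in U937. For TLR2 the change in HL60 minus that in THP-1 was -1.57 (adjusted p = 0.0167), with -1.19 in HL60 and 0.37 in THP-1. The change of TLR2 in HL60 minus that in U937 was -3.61 (adjusted p = 9.47e-06), and in THP-1 minus that in U937 it was -2.04 (adjusted p = 0.00333), with 2.41 in U937. For TLR8 the change in HL60 minus that in THP-1 was -1.64 (adjusted p = 0.0146), with -0.45 in HL60 and 1.20 in THP-1, at low levels in both lines.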

How the results depend on the processing

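With 3 arrays a group, differences near the median SE were not detectable. Changes are approximate for members with probe sets near the bottom of the scale. These were CD14 with DMSO in U937, LY96 with DMSO, TLR1 and TLR6 with DMSO in THP-1 and U937, TLR5, TLR7 and TLR8. In the 3 PMA comparisons the calls of CD14, TLR1 and TLR6 held under every alternative run, and calls of LY96 in U937, and of TLR4, TLR7 and MYD88 in THP-1, were lost under at least 1. Of 52 named pathway genes and lines, 44 kept their call in every alternative, 8 lost it in at least 1 and none changed direction. The cause of the changes below was not tested.

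Quantile normalization called 4197 genes between HL60 and THP-1 with DMSO (2692 without it), 2317 genes and 5 members for the difference of PMA effects between HL60 and THP-1 (1264 and 3), and 1395 genes for that between THP-1 and U937 (774). It gave TLR5 in U937 0.041 and TLR6 for HL60 minus U937 -0.018. Centring called 4423, 2156 and 5 members, and 1329 for the same comparisons, and gave TLR5 0.11 and TLR7 0.086 in U937, TLR7 0.027 between HL60 and U937 with PMA, and TLR1 -0.073 and TLR6 -0.12 for HL60 minus U937. Median polish gave TLR7 0.025 and TLR8 -0.065 in U937 and TLR6 0.10 for THP-1 minus U937. With genes under percentile 30 left out, fewer members were tested and 5 were called in THP-1, and 472 genes differed between THP-1 and U937. With low probe sets left out, TLR1 was -0.23 and TLR6 -0.37 for HL60 minus U937, TLR8 -0.027 in U937, TLR5 0.000348 between HL60 and U937 with DMSO, and TLR7, then read from 1 of its 6 probe sets, 1.08 (adjusted p = 0.0393) between HL60 and U937 with PMA. With the lines compared alone, 2049 genes and 5 members differed between HL60 and THP-1. The splicing index called 2 member probe sets in THP-1.

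The replicate block over all lines called 2885 probe sets for exon usage in U937 (1772 without it). The block within line, chosen after seeing the data, called 5648 genes in THP-1, 5399 in U937, 2516 genes and 5 members for HL60 minus THP-1, 2664 genes for HL60 minus U937, and 1647 genes and 4 members for THP-1 minus U937, and beyond the calls printed beside the results the blocks changed no other call of a member. Without both U937 arrays numbered 2, the counts were 4044 for HL60 against THP-1 with DMSO, 7064 for THP-1 against U937 with DMSO and 7130 with PMA, and 2075 genes and 5 members for HL60 minus THP-1. TLR1 was then -0.23 for HL60 minus U937, and TLR7 0.045 and TLR8 -0.069 in U937.

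Leaving out each array in turn gave 901 to 2094 genes and 2 to 5 members for HL60 minus THP-1, 886 to 1943 genes for HL60 minus U937, 560 to 1186 for THP-1 minus U937, and 2945 to 6670 with DMSO and 2830 to 6934 with PMA for THP-1 against U937 (4263 and 3485 with all arrays). Members not called changed sign in places. TLR4 ran from -0.19 to 0.019 in HL60, and in U937 TLR5 from -0.26 to 0.021, TLR7 from -0.34 to 0.18 and TLR8 from -0.11 to 0.18. TLR6 ran from -0.035 to 0.57 for HL60 minus THP-1, -0.21 to 0.49 for HL60 minus U937 and -0.45 to 0.20 for THP-1 minus U937. TLR1 ran from -0.27 to 0.49 for HL60 minus U937, and TLR7 from -0.35 to 0.18 between HL60 and U937 with PMA.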
